A study of Homo sapiens with 15 samples.

Results

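Ascorbic acid (AA) was raised from 50 to 100 µg/ml in cultures of MT-2, a line of CD4+ T cells that carries human T-cell leukemia virus (HTLV-1) and was transformed by it. The comparison takes 6 of the 15 arrays of the series: 3 arrays of cells given high-dose AA (100 µg/ml, AA100) and 3 of cells given intermediate-dose AA (50 µg/ml, AA50). They are paired by the tag that ends each sample title, so that each of 3 experiments gives 1 AA100 and 1 AA50 array. The remaining arrays hold low-dose AA (10 µg/ml, AA10), untreated cells and cells given 1000 IU/ml IFN-α, with 3 of each. All cells were cultured for 48 hours, and RNA was hybridised to Affymetrix Human Gene 1.0 ST arrays. No untreated array enters the difference between AA100 and AA50. All groups are this 1 transformed, virus-infected line, and uninfected T cells were not among the samples. Experiment 1 has a date of its own in the titles whereas experiments 2 and 3 share one, and how independent those 2 are is not known. The main p values rest on how differences between conditions varied over these 3 experiments, with 1 variance a cluster for all 5 conditions. They do not extend beyond these cultures.

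AA is the cofactor that keeps the iron of oxoglutarate-dependent dioxygenases reduced. Among these enzymes are the prolyl hydroxylases (EGLN1 and relatives) that mark hypoxia-inducible factor (HIF) for destruction, the collagen prolyl hydroxylases, the TET enzymes that oxidise methylcytosine and the KDM histone demethylases. HIF drives genes of glycolysis and glucose uptake through promoters that hold the letters ACGTG. ATF4 is the transcription factor of the integrated stress response. It drives amino acid transporters, amino acid synthesis and stress genes such as CHAC1 through sites of the form TGATGNAA. Sterol synthesis genes are driven by SREBP factors, usually together with NF-Y, which binds CCAAT. Cells take up AA itself through the transporters SLC23A1 and SLC23A2, and its oxidised form, dehydroascorbic acid, through glucose transporters of the SLC2A family. The study asked how AA dose and IFN-α act on gene expression in this line.

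Promoter windows of 4 genes described below are printed because each belongs to a list whose members had mostly lower values at AA100 than at AA50. They are RefSeq sequence (GRCh38.p14), from 250 bases before to 50 bases after the annotated start, 5′ to 3′ on the strand of the gene. Capitals mark the searched letters on either strand, TGATGNAA in CHAC1, ACGTG in ANKRD37 and PGK1, and CCAAT in HMGCS1. HMGCS1 has 2 such windows, and the one not printed holds no CCAAT.
CHAC1 (chr15:40953221-40953520, + strand): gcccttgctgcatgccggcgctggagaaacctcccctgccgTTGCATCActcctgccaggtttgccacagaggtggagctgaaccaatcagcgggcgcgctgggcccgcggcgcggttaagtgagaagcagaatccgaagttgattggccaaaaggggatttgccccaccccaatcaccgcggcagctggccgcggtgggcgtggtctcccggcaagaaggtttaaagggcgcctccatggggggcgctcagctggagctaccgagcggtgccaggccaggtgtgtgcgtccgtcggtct
ANKRD37 (chr4:185396591-185396890, + strand): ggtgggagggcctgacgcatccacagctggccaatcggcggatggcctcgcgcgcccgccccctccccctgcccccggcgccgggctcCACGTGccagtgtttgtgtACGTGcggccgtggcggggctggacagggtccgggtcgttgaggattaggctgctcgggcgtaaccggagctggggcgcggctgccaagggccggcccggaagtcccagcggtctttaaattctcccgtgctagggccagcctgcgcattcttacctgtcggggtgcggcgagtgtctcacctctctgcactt
PGK1 (chrX:78103998-78104297, + strand): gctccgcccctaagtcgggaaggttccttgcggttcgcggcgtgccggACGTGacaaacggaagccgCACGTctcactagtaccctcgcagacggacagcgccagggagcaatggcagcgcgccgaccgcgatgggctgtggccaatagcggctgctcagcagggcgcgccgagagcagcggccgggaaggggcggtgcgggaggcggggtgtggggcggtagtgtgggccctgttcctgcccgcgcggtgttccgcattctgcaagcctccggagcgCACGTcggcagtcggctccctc
HMGCS1 (chr5:43313363-43313662, − strand): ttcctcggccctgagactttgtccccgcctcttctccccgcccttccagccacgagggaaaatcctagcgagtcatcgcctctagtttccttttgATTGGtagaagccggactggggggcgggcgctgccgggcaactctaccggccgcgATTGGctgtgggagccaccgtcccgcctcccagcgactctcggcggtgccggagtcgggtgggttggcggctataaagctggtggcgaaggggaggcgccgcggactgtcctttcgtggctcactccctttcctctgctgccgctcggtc
The match in CHAC1 begins 209 bases before the start and reads TTGCATCA, the reverse strand form. TGATGNAA occurred in at least 1 window of 13 of 36 genes (36.1%) of the 4 lists of ATF4-linked genes that had a window, against 1217 of all 27305 genes (4.46%). ACGTG occurred in 12 of 19 genes (63.2%) of the hypoxia and glycolysis list against 24.9% of all genes, and CCAAT in 12 of 13 genes (92.3%) of the cholesterol synthesis list against 39.7%. The letters ACGTG and CCAAT were chosen after the values of these lists had been seen. The lists were themselves written from known targets of these factors. A match says only that the letters are in the window.

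Values are log2 signals of transcript clusters, the sets of probes that this array sums up for a gene or transcript, and 28926 clusters were tested. Array medians lay between 6.69 and 6.85. The AA100 array of experiment 3 stood apart: its standard deviation over clusters was 2.02, against 2.12 to 2.18 in the other 14 arrays, and its mean correlation with the other arrays was 0.976, against 0.991 to 0.995. Many values that moved by over 1.5 times without it or without experiment 3 are therefore given that way too. This was done for most genes named with a mean difference and for some list medians. A list median given alone need not be alike across experiments. CD4 (10.1 to 10.9 in AA100 arrays, 10.7 to 10.9 in AA50 arrays), IL2RA (13.3 to 13.4 and 13.2 to 13.3) and CCR4 (10.9 to 11.5 and 11.3 to 11.4) read high, as the label of a CD4+ T-cell line asks, whereas CD3E (4.98 to 5.36 and 5.27 to 5.62) and ICOS (4.41 to 4.59 and 4.23 to 4.44) lay in the dimmest quartile of all clusters. CD28 (5.17 to 5.67 and 5.51 to 5.78) lay in the second dimmest, and 6 of the 10 markers in this list lay above the median of all clusters. Of the markers of other cells, 5 of 7 for fibroblasts and epithelial cells also lay above that median. So did 2 of 5 for B cells, 1 of 6 for monocytes and macrophages and 2 of 6 for NK and CD8 T cells. Level alone thus did not set the T-cell list apart from all others. None of these markers was called between the doses, which says nothing on cell identity. The summed log2 values of 6 monocyte and macrophage markers ranged from 33.3 to 36.4 in AA100 arrays and from 33.6 to 34.5 in AA50 arrays.

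Few single clusters separated the doses. With limma and the experiment as a block, 25 of 28926 clusters passed an unadjusted p under 0.001 (0.0864%), 22 higher (0.0761%) and 3 lower (0.0104%) at AA100, where 28.9 would be expected if none changed. None passed a Benjamini-Hochberg adjusted p under 0.05, and the smallest adjusted p was 0.511. At an unadjusted p under 0.05, 1926 clusters passed (6.66%), 1389 higher (4.8%) and 537 lower (1.86%). Without the block, which the study's methods do not mention, 12 clusters passed an unadjusted p under 0.001 (0.0415%; 10 higher and 2 lower, 11 of them among the 25), 1092 passed one under 0.05, and none passed after adjustment (smallest 0.917). Without the AA100 array of experiment 3 the count was again 25, but with 13 higher and 12 lower and 6 clusters shared, and after cyclic loess normalization it was 28, with 20 higher and 8 lower. Throughout, called means an unadjusted p under 0.001 in the blocked model, and rose or fell is used of called clusters alone. Over all clusters, 53.6% had a mean difference above 0 and 46.4% below 0. Of the 25 clusters, 7 carry 1 gene symbol (0.0363% of the clusters that do) and 18 carry none, 11 and 12 lie in the dimmest and the second dimmest quartile of the clusters by signal, and in 20 the 3 AA100 arrays did not overlap the 3 AA50 arrays. All AA100 arrays lay above all AA50 arrays in 3.34% of all clusters and below them in 1.44%. The number of calls did not exceed the number expected, and the genes that follow are given as descriptions of these arrays. Apart from TLL1, every gene named below with a mean difference between AA100 and AA50 had an adjusted p = 0.721 or more in limma.

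The 6 named genes that rose all had a mean signal below the median of all clusters (6.76), though NCOR1P1 (6.74) lay close to it. TLL1, a tolloid-like metalloprotease that processes procollagens, read 5.41, 5.60 and 5.62 in the AA100 arrays of experiments 1, 2 and 3, against 5.0, 5.15 and 5.19 in the AA50 arrays. The groups did not overlap, and the mean difference was 0.43 on the log2 scale (SE 0.0682, adjusted p = 0.511). IL23R, the receptor subunit through which IL-23 acts on Th17 cells, read 6.64, 6.22 and 6.83 at AA100, against 5.85, 6.01 and 6.15 at AA50, a difference of 0.56 (SE 0.118, adjusted p = 0.721). Its lowest AA100 array, that of experiment 2, lay just above its highest AA50 array. OPRPN, which encodes the precursor of the peptide opiorphin, read 4.79, 5.07 and 5.28 at AA100 and 4.67, 4.59 and 4.63 at AA50 (difference 0.42, SE 0.0943). UGT2A3, a UDP-glucuronosyltransferase of drug and bile acid conjugation, read 5.18, 5.07 and 5.62 at AA100 and 4.78, 4.81 and 4.79 at AA50 (difference 0.50, SE 0.114). For OPRPN and UGT2A3 the AA50 arrays lay close together, with a standard deviation of 0.04 and 0.01, and the spread was among the AA100 arrays. The other two are pseudogenes, whose probes may share sequence with their parent genes. NCOR1P1, a pseudogene of the corepressor gene NCOR1, read 7.12, 6.95 and 7.49 at AA100 and 6.63, 6.48 and 6.74 at AA50 (difference 0.57, SE 0.117). ADCY10P1, a pseudogene of the soluble adenylyl cyclase, read 6.55, 6.26 and 6.52 at AA100 and 5.76, 5.85 and 5.63 at AA50 (difference 0.70, SE 0.158).

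COX7B, a small subunit of cytochrome c oxidase, was the named gene that fell. It read 7.53, 7.36 and 7.59 at AA100, against 7.89, 7.83 and 8.19 at AA50, without overlap (difference -0.48, SE 0.0966, adjusted p = 0.721). Of 53 respiratory chain genes it was the one called, 25 had higher and 28 lower values, and their median was -0.02. UQCRH, the hinge protein of complex III, read 6.27, 6.02 and 5.52 at AA100 and 6.28, 6.52 and 6.19 at AA50 (difference -0.39, and -0.26 without experiment 3), and NDUFB10 of complex I read 9.39, 9.38 and 9.71 at AA100 and 9.28, 9.27 and 9.36 at AA50 (difference 0.19, and 0.11 without experiment 3). The experiments differed in sign, with list medians of 0.09, 0.02 and -0.23 in experiments 1, 2 and 3 and 9, 21 and 38 of the 53 genes below 0. Without the AA100 array of experiment 3, TLL1 kept its call (difference 0.42). The other 6 named genes kept their sign, with differences of 0.33 to 0.70 in those that rose and -0.43 in COX7B, and were no longer called. TLL1 in turn was not called when experiment 2 was left out (difference 0.42).

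**Figure D1:**
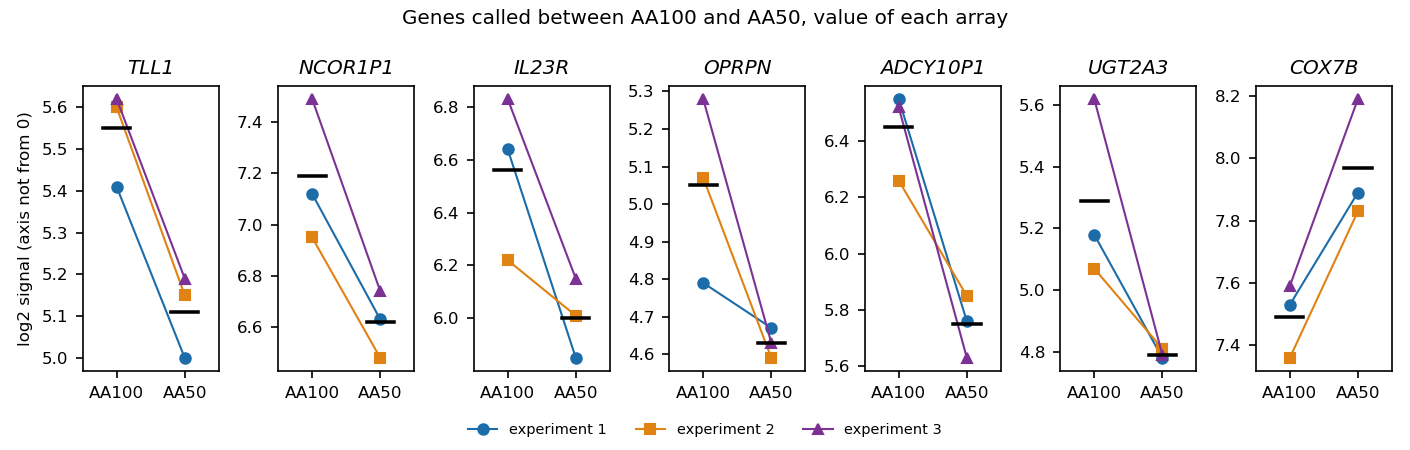
Log2 signal (y axis, not from 0) of the 7 named genes called between AA100 and AA50, with 1 point for each array, lines joining the arrays of an experiment and bars at the mean of 3. TLL1 separates the doses by 0.43 with little spread between experiments, and COX7B is the gene with lower values at AA100.

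From untreated cells to AA10 the called clusters had no common direction. AA10 and untreated arrays share no array with the step, and of the 22 clusters that rose, 10 were above 0 in AA10 minus untreated, against 52.3% of all clusters, with a median of -0.01 against 0.01. Of the 3 that fell, 1 was below 0. From AA10 to AA50 the median of the 22 was -0.04, and in that step 2 of all clusters were called (0.00691%). The AA50 arrays also helped to pick the 22, which favours low AA50 values. That median therefore cannot show whether the doses form a gradient. ADCY10P1 had the largest drop of the 22 from AA10 to AA50 (-0.72). It read 6.39, 6.68 and 6.50 in untreated cells, 6.52, 6.07 and 6.81 at AA10, 5.76, 5.85 and 5.63 at AA50, and 6.55, 6.26 and 6.52 at AA100. The value that stands apart in this gene is that of the AA50 arrays. IL23R, in contrast, averaged 5.75, 6.0, 6.0 and 6.56 in untreated, AA10, AA50 and AA100 arrays.

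Each experiment on its own gave a different picture, with no p since it holds 1 array a dose. In experiment 1, 23 clusters were higher and 18 lower by 1 or more on the log2 scale (0.0795% and 0.0622%). In experiment 2 the counts were 20 and 5 (0.0691% and 0.0173%), and in experiment 3 they were 469 and 156 (1.62% and 0.539%). The standard deviation of the differences was 0.22, 0.162 and 0.375 in experiments 1, 2 and 3. In experiment 3 the difference depended on the signal level, with medians of 0.17, 0.11, -0.07 and -0.11 from the dimmest to the brightest quartile of the clusters. In experiment 1 these medians were 0, -0.08, 0.01 and 0.09, and in experiment 2 they were 0.03, 0.05, 0.01 and -0.01. Cyclic loess normalization, which removes such level dependence, left all of them between 0 and 0.02. Across clusters, the differences of experiments 1 and 2 had a correlation of -0.0408, those of 1 and 3 of -0.0207, and those of 2 and 3, which share a date, of 0.169. These are descriptions across clusters, which share array and signal level. As a background for the counts below, 14.2% of clusters were higher and 8.01% lower in all 3 experiments.

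**Figure D2:**
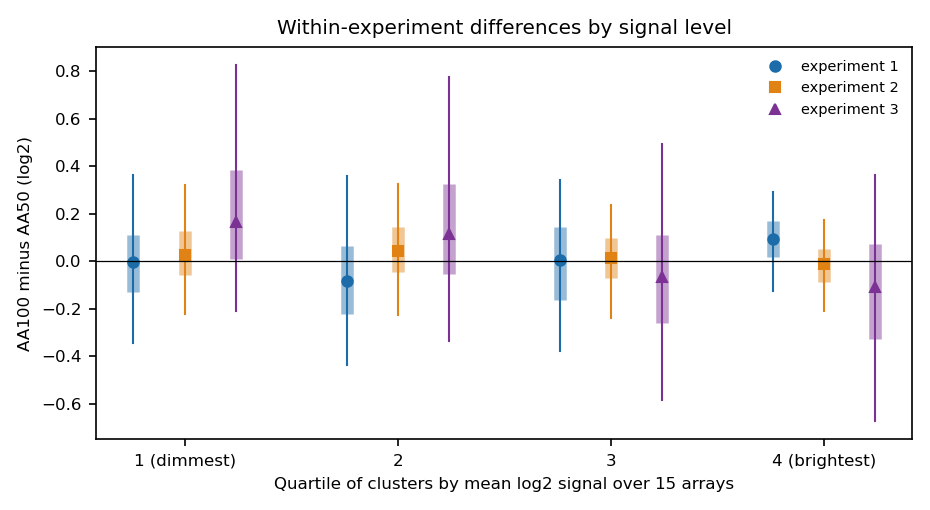
Within-experiment differences AA100 minus AA50 (y axis, log2) by quartile of clusters from dim to bright (x axis). Points are medians, thick bars the 25th to 75th percentile and thin bars the 5th to 95th percentile; experiment 3 is the widest, with medians of 0.17 in the dimmest and -0.11 in the brightest quartile.

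Among clusters with 1 gene symbol, the most extreme of each experiment were mostly small RNAs, pseudogenes and dim genes. None of those named was extreme in all 3, and lowest and highest below refer to clusters with 1 symbol. Over all clusters the differences ran from -1.67 to 2.32 in experiment 1, from -1.91 to 2.64 in experiment 2 and from -3.6 to 2.56 in experiment 3. Of those named here, OR2J3 was extreme in experiments 2 and 3 (-0.10 in experiment 1), and LOC100419773 and RNU5A-1 in experiments 1 and 2, with differences of 0 and -0.85 in experiment 3. In experiment 3 SNORD41, a box C/D small nucleolar RNA, read 7.59 at AA100 against 11.19 at AA50, a difference of -3.60, whereas its AA100 values in experiments 1 and 2 were 11.35 and 11.16, against 11.56 and 11.26 at AA50. MIR142, the hairpin of a microRNA of blood cells, read 7.09 at AA100 against 9.65 at AA50 in experiment 3, and 8.98 and 9.83 at AA100 against 8.62 and 9.51 at AA50 in experiments 1 and 2, so that its sign was positive in both of those. SNORD116-1 (-2.49), SNORD57 (-2.27) and ELOF1 (-2.21), an elongation factor homolog, were the next lowest in experiment 3. LINC00314 (2.35), the olfactory receptor OR2J3 (1.88), LINC02591 (1.83), REXO1L1P (1.73) and IGKC (1.69) were its highest. In experiment 1 ZNF487 (-1.20) and RPS6P6 (-1.09) were lowest and LOC399975 (1.57), SNORD116-22 (1.49) and LYZL2 (1.18) highest. In experiment 2 RPL34-DT (-1.13) and KIAA1328 (-1.02) were lowest and RNU5A-1 (1.25), OR2J3 (1.18) and LOC100419773 (1.17) highest.

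ATF4 and the genes under it had lower values at AA100, with no call. Of 15 regulators and targets of the ATF4 arm, 14 had a mean difference below 0, 4 with an unadjusted p under 0.05, and 9 (60%) were below 0 in all 3 experiments, against 8.01% of all clusters and 8.9% of the brightest quartile, where most of these genes lie. The median was -0.18, against -0.01 over all 18355 genes, and it was -0.12, -0.13 and -0.22 in experiments 1, 2 and 3. Leaving out experiment 3 gave -0.13. CHAC1, which breaks down glutathione and whose promoter is shown above, read 8.15, 8.59 and 7.98 at AA100, against 8.51, 8.72 and 8.27 at AA50 (difference -0.26, SE 0.109, adjusted p = 0.721, and -0.16 without the AA100 array of experiment 3). Without experiment 3 as a whole the difference in CHAC1 was -0.25. The 2 groups overlapped, but within each experiment the AA100 array was the lower. JDP2, a repressor of the AP-1 family, read 6.66, 6.94 and 6.72 at AA100 and 7.01, 6.95 and 6.94 at AA50 (difference -0.19). ATF4 itself read 10.09, 10.30 and 8.86 at AA100, against 10.12, 10.59 and 10.16 at AA50 (difference -0.54), and DDIT4, an inhibitor of mTORC1 that both ATF4 and HIF drive, read 9.22, 8.81 and 6.62 at AA100, against 9.49, 9.13 and 8.69 at AA50 (difference -0.89). In ATF4 and DDIT4 most of the mean came from experiment 3. Without its AA100 array the differences were -0.14 and -0.25, and neither passed an unadjusted p under 0.05. Without experiment 3 as a whole they were -0.16 and -0.30, and DDIT4 alone of the 2 passed it (limma, unadjusted p = 0.0346).

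Of 6 stress-secreted factors, 5 had lower values (median -0.18). STC2, a secreted glycoprotein induced in the unfolded protein response, read 8.78, 8.70 and 7.49 at AA100, against 9.05, 8.99 and 8.49 at AA50 (difference -0.52, and -0.28 without experiment 3). INHBE, a subunit of activin E, read 7.48, 7.68 and 7.12 at AA100 and 7.66, 7.73 and 7.64 at AA50 (difference -0.25, and -0.11 without experiment 3). The amino acid genes were closer to 0. Of 12 amino acid transporters 9 had lower values (median -0.10, and -0.02 without experiment 3), of 12 synthesis genes 11 (median -0.11, and -0.03 without experiment 3), and of 19 cytosolic tRNA synthetases 15 (median -0.03), with no p under 0.05 in any of these lists. SLC38A2, a transporter of small neutral amino acids, averaged 11.10 ± 0.11 at AA100 and 11.22 ± 0.10 at AA50 (SD, n = 3 each), and its difference of -0.12 was alike in every experiment (SE 0.0682).

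Genes of hypoxia and glycolysis and of cholesterol synthesis also had mostly lower values, and experiment 3 gave most of the size. Of 20 hypoxia and glycolysis genes, 19 had a mean below 0, 3 with an unadjusted p under 0.05 and none called, and 12 were below 0 in all 3 experiments. Their median was -0.21, and -0.04, -0.14 and -0.48 in experiments 1, 2 and 3. After loess normalization it was -0.20, and without experiment 3 it was -0.12. TPI1, triosephosphate isomerase, was the member with alike differences in the experiments: 10.27, 10.07 and 9.79 at AA100, against 10.44, 10.34 and 9.97 at AA50 (difference -0.21, SE 0.0927, and -0.23 without experiment 3). PGK1, phosphoglycerate kinase, read 12.51, 12.28 and 11.63 at AA100, against 12.55, 12.43 and 12.34 at AA50 (difference -0.30, and -0.10 without experiment 3). ANKRD37, an ankyrin repeat gene under HIF, read 9.43, 9.20 and 8.49 at AA100, against 9.51, 9.34 and 9.17 at AA50 (difference -0.30, and -0.11 without experiment 3). Their windows with ACGTG are printed above. ALDOC, brain-type aldolase, had the largest mean of the list, with 10.67, 9.85 and 7.72 at AA100 against 10.89, 10.32 and 9.67 at AA50 (difference -0.88, SE 0.411, and -0.34 without experiment 3). Its AA100 values alone span more than the whole range of its AA50 values.

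All 14 cholesterol synthesis genes had a mean below 0 and 12 were below 0 in all 3 experiments, with 1 at an unadjusted p under 0.05 and none called. The median was -0.24, and -0.04, -0.15 and -0.55 in experiments 1, 2 and 3. It was -0.23 after loess normalization and -0.10 without experiment 3. CYP51A1, lanosterol demethylase, read 10.01, 9.61 and 8.15 at AA100, against 10.26, 9.95 and 9.92 at AA50 (difference -0.78, SE 0.257, and -0.29 without experiment 3). HMGCS1, HMG-CoA synthase, whose promoter is shown above, read 12.17, 11.49 and 11.23 at AA100, against 12.24, 11.72 and 11.62 at AA50 (difference -0.23, and -0.15 without experiment 3). IDI1, isopentenyl diphosphate isomerase, read 11.05, 10.65 and 10.35 at AA100 and 11.10, 10.70 and 10.85 at AA50 (difference -0.20, and -0.05 without experiment 3), and LSS, lanosterol synthase, read 8.13, 7.86 and 7.15 at AA100 and 8.18, 8.04 and 7.68 at AA50 (difference -0.25, and -0.11 without experiment 3). In IDI1 the differences of experiments 1 and 2 were small beside that of experiment 3. Whether the array of experiment 3 or the dose accounts for its part of these values was not tested.

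These lists did not follow dose evenly. Relative to the mean of the 4 doses in an experiment, the median hypoxia and glycolysis gene in experiment 3 was 0.28 in untreated cells and then -0.06, 0.13 and -0.39 at 10, 50 and 100 µg/ml, and the median cholesterol gene was 0.44, -0.13, 0.12 and -0.42 in the same order. The AA10 array of experiment 3 was thus also low in both lists, and the AA50 array lay above it. Over the 3 experiments the step from AA10 to AA50 had medians of 0.11 for the hypoxia and glycolysis list and 0.09 for the cholesterol list, and the lower step, AA10 against untreated, -0.10 and -0.24. The ATF4 list ran downward from 10 to 100 µg/ml in experiments 1 and 3: 0.11, 0.01 and -0.16 in experiment 1, and 0.07, -0.04 and -0.29 in experiment 3. In experiment 2 it was 0.01, 0.01 and -0.11. In untreated cells this list was at 0.02, 0.10 and 0.38 in experiments 1, 2 and 3. In experiment 1 the untreated value thus lay below that at 10 µg/ml.

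**Figure D3:**
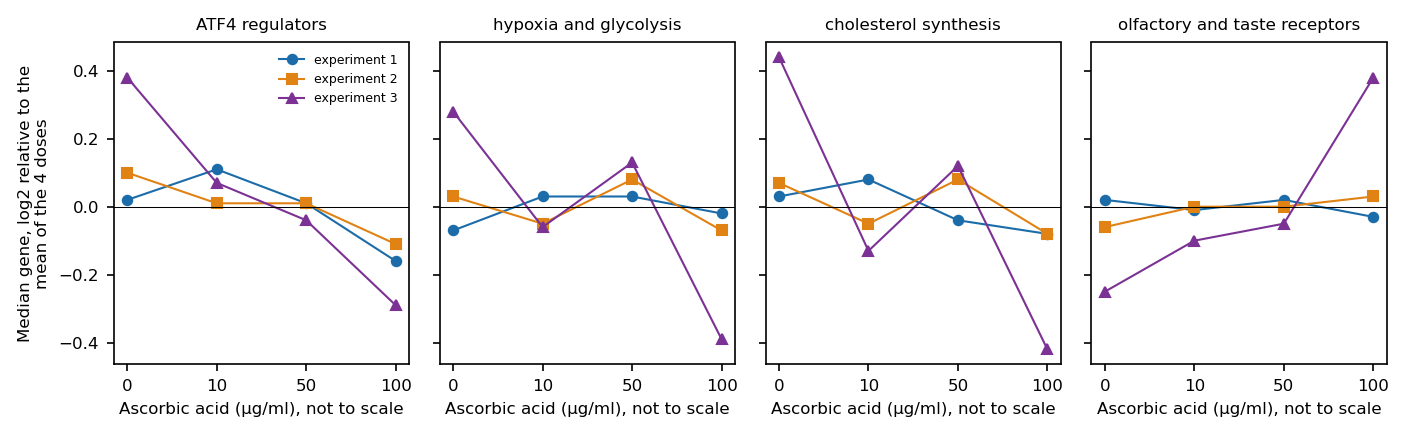
Median gene of 4 lists (y axis, log2 relative to the mean of the 4 doses in that experiment) at 0, 10, 50 and 100 µg/ml AA (x axis, not to scale), 1 line for each experiment. In experiment 3 the hypoxia and cholesterol lists are low at 10, higher at 50 and lowest at 100 µg/ml (-0.39 and -0.42), whereas the ATF4 list descends.

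Among genes that handle AA, SLC2A3 had a lower value at AA100 in every experiment, and the AA transporters lay near 0. SLC2A3, a high-affinity glucose transporter that also carries dehydroascorbic acid, read 8.48, 8.32 and 7.73 at AA100, against 8.86, 8.57 and 8.14 at AA50 (difference -0.35, SE 0.112, adjusted p = 0.721). It was lower within each experiment, and without experiment 3 the difference was -0.31. SLC2A1, the transporter known as GLUT1 and a receptor of HTLV-1, read 11.38, 11.22 and 10.29 at AA100 and 11.33, 11.45 and 11.14 at AA50 (difference -0.35, and -0.09 without experiment 3). GLRX, a glutaredoxin that can reduce dehydroascorbic acid, read 8.93, 8.84 and 8.62 at AA100 and 8.99, 9.08 and 8.87 at AA50 (difference -0.18, and -0.11 without the AA100 array of experiment 3). The sodium-dependent AA transporters differed by 0.02 (SLC23A2, 95% interval -0.20 to 0.23) and -0.05 (SLC23A1, -0.34 to 0.24), intervals that include differences as large as that of GLRX. Whether SLC2A3 and the SLC23A genes differ from each other was not tested.

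Of 25 measured dioxygenases that use AA, 21 had a mean below 0, 2 with an unadjusted p under 0.05 and none called, and 7 were below 0 in all 3 experiments. The median was -0.10, and -0.04 without experiment 3, with 0.08 in experiment 1. EGLN1, the main HIF prolyl hydroxylase, read 9.48, 9.24 and 8.53 at AA100, against 9.80, 9.49 and 9.26 at AA50 (difference -0.43, SE 0.139, and -0.28 without experiment 3). ALKBH5, a demethylase of methyladenosine in RNA, read 10.93, 10.65 and 10.01 at AA100, against 11.14, 10.97 and 10.60 at AA50 (difference -0.37, SE 0.132, and -0.21 without the AA100 array of experiment 3). Both were lower within every experiment. EGLN1 is also a known HIF target, as is KDM3A, a histone demethylase, which read 9.93, 9.07 and 7.89 at AA100 and 9.93, 9.58 and 9.10 at AA50 (difference -0.57, and -0.26 without experiment 3). TET1, TET2 and TET3 differed by -0.05, 0.04 and -0.05.

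Small RNAs took their values mostly from experiment 3. The SNORD116 family, box C/D RNAs cut from introns of an imprinted transcript, had 19 of 20 members below 0 (median -0.20), but medians of -0.02, -0.03 and -0.56 by experiment and 0.02 without experiment 3. SNORD116-11 was the member with alike differences, at 5.07, 4.70 and 4.35 in AA100 arrays against 5.50, 5.17 and 4.69 in AA50 arrays (difference -0.41, and -0.45 without experiment 3). SNORD116-14 read 10.41, 10.60 and 9.48 at AA100 and 10.65, 10.62 and 10.72 at AA50, a difference of -0.50 that became -0.13 without experiment 3. The family members are near-identical in sequence, so their probes may not separate them. SNORD115 had 10 members above and 10 below 0 (median 0.01). The other 72 C/D RNAs had a median of -0.06, at 0.15, 0.03 and -0.50 by experiment. The 61 H/ACA RNAs had a median of -0.07, at 0, 0 and -0.25 by experiment.

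MicroRNAs are seen here through their hairpin or host transcript. The cluster shared by MIR155 and its host gene MIR155HG, among the genes the study lists for high-dose AA, read 10.04, 10.08 and 9.92 at AA100, against 10.26, 10.13 and 9.98 at AA50 (difference -0.11, SE 0.0735). Over the dose series its mean was lower at each step, by -0.22 from untreated cells to AA10, -0.20 to AA50 and -0.11 to AA100. The mature sequences are printed with the seed (bases 2 to 8) in capitals, since MIR155 is the microRNA the study follows and MIR142 was among the genes with the lowest differences of experiment 3 (RefSeq, GRCh38.p14).
hsa-miR-155-5p (chr21:25573983-25574006, + strand): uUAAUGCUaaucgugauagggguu
hsa-miR-142-5p (chr17:58331283-58331303, − strand): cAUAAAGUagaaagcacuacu
hsa-miR-142-3p (chr17:58331245-58331267, − strand): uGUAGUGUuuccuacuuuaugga
The 3 seeds differ from each other. The array does not measure these mature forms.

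T-cell genes had no common direction. Of 23 T cell receptor and activation genes, 8 had higher and 15 lower values (median -0.02), with IL23R called. CD69, the early activation antigen, read 4.79, 5.14 and 5.27 at AA100, against 4.74, 4.70 and 4.75 at AA50, without overlap but with 0.05 in experiment 1 against 0.45 and 0.52 in experiments 2 and 3 (mean 0.34, SE 0.1). It was called when the AA100 array of experiment 1 was left out. LCP2, an adaptor of receptor signalling, read 9.78, 9.72 and 10.09 at AA100 and 9.65, 9.68 and 9.59 at AA50 (difference 0.22, and 0.09 without experiment 3). Of 25 cytokines and chemokines 16 had higher values, with a median of 0.06, at 0, 0 and 0.21 by experiment. CXCL10, a chemokine for activated T cells, had the largest difference among them. It read 8.31, 8.25 and 9.02 at AA100 and 7.98, 8.22 and 8.27 at AA50 (difference 0.37, and 0.18 without experiment 3). The 29 interferon-stimulated genes had a median of -0.01, with 1 member at an unadjusted p under 0.05. That was OASL, an OAS-like protein, with 6.29, 6.33 and 6.23 at AA100 against 6.50, 6.53 and 6.53 at AA50 (difference -0.24, SE 0.0862).

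Lists of cell stress, death and growth lay near 0. Median differences were 0.05 for 16 antioxidant and NRF2 target genes, 0.09 for 8 metallothioneins, 0.03 for 13 heat shock proteins, -0.03 for 18 endoplasmic reticulum chaperones, -0.08 for 17 p53 targets, -0.05 for 26 apoptosis and necroptosis genes, -0.06 for 21 NF-κB genes and -0.09 for 17 AP-1 and early growth factors, of which 15 had lower values. None of these lists held a called gene, and of their members BID, a pro-death BCL2 relative, was the one with an unadjusted p under 0.05 (difference 0.17, and 0.11 without experiment 3). In experiments 1, 2 and 3 the medians were 0.07, -0.03 and -0.22 for p53 targets and 0.08, 0.01 and -0.18 for the chaperones. They were 0.02, 0 and -0.18 for NF-κB genes, whereas those of the antioxidant list were 0.11, 0.04 and 0.02. The 26 cell cycle and DNA replication genes had a median of 0.02, at 0.18, 0.03 and -0.16 by experiment, so that experiments 1 and 3 were of opposite sign. Proteasome subunits (36, median -0.01), cytosolic ribosomal proteins (63, -0.06) and replication-dependent histones (56, 0.02) were likewise without a call.

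At the dim end, 315 of 381 olfactory and taste receptors, genes of sensory cells that a T-cell line is not known to use, had higher values at AA100, 42 of them with an unadjusted p under 0.05 and none called. Their median was 0.13, and -0.05, 0.03 and 0.41 by experiment. Among all clusters of the dimmest quartile 8.42% were higher at an unadjusted p under 0.05, and 22% were higher in all 3 experiments, against 88 of the 381 receptors. Without experiment 3 the median of the list was 0. In all, 8 clusters of the USP17L deubiquitinase family had medians of 0.30, 0.20 and 1.60 in experiments 1, 2 and 3, and none was called.

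Genes that the study lists for high-dose AA were chosen on these samples, through a comparison that contains the AA100 arrays, so their direction here is not independent evidence. Of 16 measured genes listed as raised, 15 had higher values at AA100 than at AA50, 10 with an unadjusted p under 0.05 (4.8% of all clusters), 3 called (TLL1, IL23R and OPRPN) and 12 higher in all 3 experiments. Their median was 0.25 in this step (0.19 without experiment 3), 0.01 from AA10 to AA50 and 0.18 from untreated to AA10. Besides those called, TLE4, a Groucho-type corepressor, read 9.04, 8.88 and 9.01 at AA100, against 8.65, 8.67 and 8.74 at AA50, without overlap (difference 0.29, SE 0.0797). OOSP2, an oocyte secreted protein, differed by 0.30, PRSS55, a serine protease of testis, by 0.25, KYNU, kynureninase of tryptophan breakdown, by 0.37, MGP, the matrix Gla protein, by 0.25 and TAS2R9, a bitter taste receptor, by 0.19. TLE4 was the bright gene among them, and its difference without experiment 3 was 0.30. Without experiment 3 that of KYNU was 0.23, that of MGP 0.10 and that of TAS2R9 0.09. H1-1 (0.20), RPS24 (0.16), PCDHB3 (0.14), GNG4 (0.13) and TMC7 (0.12) did not pass an unadjusted p under 0.05, and TOB2 was at -0.04.

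Of 16 measured genes listed as lowered, all had lower values at AA100 than at AA50, 3 with an unadjusted p under 0.05 (1.86% of all clusters) and none called. Their median of -0.12 in this step equalled that from AA10 to AA50 (-0.12), and was -0.20 from untreated to AA10. In both lists a gene is read from its cluster with the highest mean, which need not be the one the study listed. RIOX2, listed as MINA, was at -0.01 in this step and 0.06 from untreated cells to AA100. BEST1, a calcium-gated chloride channel, read 6.50, 6.64 and 6.51 at AA100, against 6.75, 6.90 and 6.79 at AA50, without overlap (difference -0.26, SE 0.0824). Its difference was alike in every experiment. SH3D21, an SH3 domain protein, read 6.83, 6.69 and 6.53 at AA100 and 7.06, 6.96 and 6.76 at AA50 (difference -0.25). SLC7A11, a cystine transporter, read 8.42, 8.64 and 8.62 at AA100 and 8.69, 8.77 and 8.46 at AA50 (difference -0.08), with a difference of -0.33 from AA10 to AA50. Listed genes whose cluster is shared with another symbol are given apart. GIMAP5, listed as raised, differed by 0.22 and GALNT4, listed as lowered, by -0.23. TRIM43, listed as lowered, has 3 clusters, all shared with TRIM43B, which differed by -0.12, -0.12 and -0.22. In each of these the AA100 arrays lay below the AA50 arrays without overlap, and the last passed an unadjusted p under 0.05.

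Whether a difference belongs to the upper step was tested as the difference between the steps, AA100 minus AA50 against AA50 minus AA10. Both steps use the AA50 arrays, so a low AA50 value raises the one and lowers the other. At an unadjusted p under 0.001, 4 clusters passed (0.0138%), where 28.9 would be expected if none changed. All 4 had a positive difference of steps, and 451 clusters passed an unadjusted p under 0.05 (1.56%), but none passed after adjustment (smallest adjusted p 1). Of the 4 clusters, the 3 named ones were ADCY10P1 (difference of steps 1.42), TLL1 (0.60) and MPV17L (0.89), a mitochondrial inner membrane protein. MPV17L read 5.74, 5.74 and 5.82 at AA100 against 4.98, 5.58 and 5.34 at AA50. In all 3 the AA50 arrays lay below the AA10 arrays on average (by -0.72, -0.17 and -0.42). Their upper steps, in the same order, were 0.70, 0.43 and 0.47. The difference of steps is signed, so a positive value does not by itself mean a larger change in the upper step. Ranked by p, SNORA60 (0.53) and XPNPEP2 (0.56), an aminopeptidase, came next among named genes. In the other direction the smallest p were those of COX7B (-0.61), FOLR3 (-0.62), a folate receptor, and MYO1E (-0.44), an unconventional myosin. DEPDC7 (-0.39) and GFRA3 (-0.41), a receptor of the GDNF family, followed. Larger in size but with a larger p were, among others, ALDOC (-1.42, SE 0.713), DDIT4 (-1.07, SE 0.632), KDM3A (-1.03, SE 0.505) and EGLN1 (-0.73, SE 0.242). No gene was separated between the steps after adjustment, and none of the 4 clusters passed when experiment 1 or experiment 3 was left out.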

How the data were processed

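The deposited values are log2 signals that the authors made from 15 Affymetrix Human Gene 1.0 ST arrays by RMA, which corrects background, normalizes quantiles and sums the probes of a transcript cluster, per the labels and the paper's methods. Quantile normalization forces the arrays toward 1 distribution, and the genome build of the array design is not given in the sources used here, so no gene positions come from it. Platform annotation, with 27 symbols updated through RefSeq, names 19310 clusters by 1 symbol, 1752 by several and 7864 by none. For 546 clusters the deposited values are identical to those of another cluster. Raw intensities were not used here, and items withheld for evaluation are not reported.

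The difference between AA100 and AA50 was estimated with limma 3.58.1 in R 4.3.3 as the mean of 3 within-experiment differences. The model held the 5 conditions and the 3 experiments over all 15 arrays (8 residual and 4.2 prior degrees of freedom). The experiment is the tag that ends each title. After subtraction of the condition means, arrays of the same experiment correlated across clusters by 0.288 to 0.497 over the 3 AA100 and AA50 pairs, and arrays of different experiments by -0.443 to 0.141. Two-sided p values were adjusted by Benjamini-Hochberg over all clusters. The study's threshold, an unadjusted p under 0.001, defines a call. The scripts were tested on simulated data.

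For lists, a gene took its cluster with the highest mean, clusters with several symbols were left out, and counts and medians were given without a set test. Genes named are the called clusters with 1 symbol and 1 sign in all experiments, up to 4 members a list with the smallest p, the genes the study lists for high-dose AA, and the most extreme genes of each experiment and of the difference between the steps. The members, lists and rules were chosen with earlier results of these data known. Sequences are from RefSeq tables of GRCh38.p14. Alternatives tried were no block or a random block (statmod 1.5.0), other sets of arrays, filters, variance models, array weights, cyclic loess normalization, other thresholds, means over a gene's clusters, and leaving out arrays or experiments. With 3 arrays a dose, precision is limited. Plots were made in Python 3.11.15 (matplotlib 3.10.9).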

Additional observations from a re-analysis of the deposited data

How the results depend on the processing

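The count of 25 calls between AA100 and AA50 moved with most choices. It was 12 with no replicate block, 41 with the 6 arrays alone (all higher, 5 of them among the 25), 15 without the dimmest 25% of clusters, 9 among clusters with 1 symbol, 138 at an unadjusted p under 0.005 and 0 at an adjusted p under 0.05. With a random block, the 9 AA arrays alone, a trended and robust variance, array weights or cyclic loess normalization it stayed within 1.5 times, at 24, 17, 21, 33 and 28, of which 18, 8, 21, 11 and 17 were among the 25. Array weights gave the AA100 arrays of experiments 3 and 1 weights of 0.114 and 0.377, the lowest of all arrays, and that of experiment 2 a weight of 1.61. The weights were estimated gene by gene because the default method did not converge. Leaving out 1 array or 1 experiment gave 10 (without AA50 replicate 3) to 80 calls (without AA100 replicate 1), with 78 without AA100 replicate 2, 15 without AA50 replicate 1, 16 without experiment 2 and 40 without experiment 3. Without AA100 replicate 3 it was 25 again, 13 higher and 12 lower, with 6 shared. Counts of differences of 1 or more in experiments 1, 2 and 3 became 825, 327 and 4214 at a size of 0.5, and 27, 13 and 440 without the dimmest 25%. The 4 clusters of the difference between steps were 4 to 14 when an experiment was left out (14 without experiment 3), of which 0, 2 and 0 were among the 4 without experiments 1, 2 and 3, and 3 with no replicate block. With no replicate block NCOR1P1, IL23R, OPRPN, UGT2A3 and COX7B lost their call and no other named gene crossed the threshold. With array weights IL23R, ADCY10P1 and UGT2A3 lost it, and with loess ADCY10P1. Signs turned in genes near 0: to 0.03 in IGSF9B and TOB2 and 0.01 in SNORD116-29 with array weights, and to 0.02 in RIOX2 with loess. Leave-one-out ranges that cross 0 were -0.12 to 0.10 (RIOX2), -0.20 to 0.02 (SLC7A11), -0.62 to 0.02 (SNORD116-13), -0.15 to 0.04 (SNORD116-29), -0.11 to 0 (SULF1) and -0.08 to 0.04 (TOB2). Each of the 39 list medians moved by less than the spread between experiments under loess and under means over clusters, and leaving out experiment 1, 2 or 3 moved 3, 2 and 3 of them by more.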

Other observations

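Iron-handling genes, which share chemistry with the dioxygenases, lay near 0. Of 8 measured, 2 had higher and 6 lower values (median -0.08), and none was called. STEAP3, a ferrireductase of endosomes, read 9.01, 9.11 and 9.17 at AA100, against 8.87, 9.02 and 8.96 at AA50 (difference 0.15, SE 0.0675), and was the member with an unadjusted p under 0.05. It was higher within each experiment. The 8 measured DUX4-responsive genes, of embryonic and germ cells, had 4 members above and 4 below 0.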
